A study of Mus musculus with 4 samples.

Results

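MHC class I molecules display peptides from inside the cell to CD8 T cells and to receptors of natural killer cells, and nearly every nucleated cell, T cells included, carries them. A heavy chain pairs with beta-2 microglobulin, and the pair is filled with peptide in the endoplasmic reticulum. The peptides come from the proteasome, are pumped in by the TAP transporter and are trimmed by an aminopeptidase, while tapasin holds the empty class I molecule beside the transporter. Interferon raises the genes of this pathway together, and the transactivator NLRC5 drives them through a promoter module that resembles the one used by MHC class II genes.

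The set described here holds 9 genes of this pathway, taken by gene symbol: the transactivator Nlrc5, the heavy chain genes H2-K1, H2-D1 and H2-T23, the light chain gene B2m, the transporter genes Tap1 and Tap2, the tapasin gene Tapbp and the aminopeptidase gene Erap1. All 9 were among the 7252 tested rows of the authors' deposited table, so 0 were absent, and 0 were lost to low values. Effector T cells with high CD5 (2 libraries) were compared with effector T cells with low CD5 (2 libraries). Every library came from NOD mice, which become diabetic through autoimmunity, of the genotype NOD.Foxp3-GFP and aged 6 to 9 weeks; the reporter marks cells that express Foxp3, the factor of regulatory T cells. CD5 is a surface protein whose level is read as a measure of how strongly a T cell reacts to self-peptides. The tissue label reads pancreatic islets and spleen, and the design text speaks of islet cells. Whether animals were pooled is not stated in the labels.

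The deposited table gives 1 combined FPKM value (a count of fragments corrected for transcript length and for the total mapped) per group and gene, with the authors' p-value and q-value. Values per library are not given there, so none of the levels below has an error or an n, and the depth is unknown. A gene is said to have risen, fallen or changed only where that q-value was under 0.05. Fold changes are CD5 high over CD5 low throughout. Cd5 itself rose, with 206 FPKM in CD5 high and 45.4 FPKM in CD5 low (q = 0.0110 in the authors' deposited table). T cell markers were well expressed in both groups: the 7 tested markers of 8 listed (Cd3d, Cd3e, Cd3g, Cd4, Cd2, Lck, Thy1) summed to 3060 FPKM in CD5 high and 2805 FPKM in CD5 low, and none changed. In bulk RNA, fewer cells of a type and less RNA per cell cannot be told apart.

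Promoter stretches of the most abundant members are shown first, because they carry the letters through which class I genes are known to be regulated together. RefSeq windows on build GRCm38.p6, from 250 bases before to 50 after an annotated start, were matched by symbol for 7 of the 9 members, with Tap2 and Nlrc5 unmatched. The stretches below run 5′ to 3′ on the gene's own strand, and for H2-K1 the downstream of 2 listed starts was used. Capitals mark the motif letters. GGGGATTCC is the core of a kappaB site, GAANNGAA and GAAANNGAA are forms of an interferon response element, TGACG is the core of an X2-like box and CCAAT is a Y box. Each was searched on both strands, so that TTCACTTC is a reverse form of GAANNGAA and ATTGG that of CCAAT. The letters are those of the C57BL/6J reference, and NOD sequence was not used here.
H2-K1, kappaB to interferon letters, chr17:34000429-34000458 (minus strand): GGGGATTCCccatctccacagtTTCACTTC
H2-D1, kappaB to interferon letters, chr17:35262923-35262952 (plus strand): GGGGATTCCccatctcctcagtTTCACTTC
H2-K1, X2-like to Y letters, chr17:34000359-34000388 (minus strand): TGACGcgcagtcagctcttacccccATTGG
H2-D1, X2-like to Y letters, chr17:35262993-35263022 (plus strand): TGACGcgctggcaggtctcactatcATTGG
B2m, X2-like to Y letters, chr2:122147609-122147638 (plus strand): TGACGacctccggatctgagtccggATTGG

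The promoters of H2-K1 and H2-D1 carried the same letters in the same order. The window of the other heavy chain member, H2-T23, held GAAANNGAA and CCAAT but none of the other letters. From the first base of GGGGATTCC to that of the interferon letters was 22 bases in both H2-K1 and H2-D1, from there to TGACG 48 bases in both, and from TGACG to ATTGG 25 bases in both. The second Y box followed after 24 bases in H2-K1 and 23 bases in H2-D1. Between the first base of the kappaB letters and the last base of the second Y box, 108 of 123 aligned positions (87.8%) were identical. B2m, on another chromosome, also had 25 bases from TGACG to ATTGG, and the class II gene H2-Aa had 26. The window of H2-Eb1, another class II gene, held GAANNGAA, ATTGG and CCAAT but not TGACG.

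Among the 7 members with a window, TGACG and CCAAT both occurred in 4 (H2-K1, H2-D1, B2m and Tap1), against 7.73% of all 32851 windows. With the first bases of TGACG and ATTGG 24 to 26 bases apart on one strand, the pair occurred in 3 members (H2-K1, H2-D1 and B2m), against 0.201% of all windows. That range was chosen after these promoters were read, so the count is not independent of them. GGGGATTCC occurred in H2-K1 and H2-D1, against 0.250% of windows. Only these exact letters were searched and no variants of the site, which keeps the background low. H2-K1 and H2-D1 are near copies over this stretch, so their matches are not independent of each other. Counted singly, CCAAT was in 6 members (37.4% of windows) and TGACG in 4 (20.8% of windows). An interferon form was in 5 members, H2-K1, H2-D1, H2-T23, B2m and Erap1, against 26.2% of windows. GAANNGAA by itself was in 3 members (20.1% of windows) and GAAANNGAA in 3 (8.56% of windows). The longer form was chosen after the promoters were read, so counts that include it are not independent of them. A match is a run of letters, not a measured binding site, and several windows can belong to 1 gene.

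Transcript levels of class I genes lay close together in CD5 high and CD5 low cells. The count of members that passed the test was 0 of 9, where the background over all tested rows was 0.758% (55 of 7252). None of the 9 had an unadjusted p under 0.05 either, against 10.3% of all rows. The authors' q-values of the members ranged from 0.740 to 0.998 in the authors' deposited table. The values of 3 members were higher and those of 6 were lower in CD5 high. Their median on the log2 scale was -0.02, beside -0.01 over all 7237 rows with a finite fold change. Ignoring direction, the median size of the log2 difference was 0.09 in the members and 0.24 over all rows. Differences were smaller among highly expressed rows: among the 1554 rows with a mean of at least 50 FPKM the median size was 0.19, and it was 0.09 in the 7 members above that level. These q-values do not show that the groups were equal. The smallest change that passed the test anywhere in the table was 0.73 on the log2 scale (Hmgb2, 1.66-fold), while the most distant member differed by 1.22-fold.

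**Figure D1:**
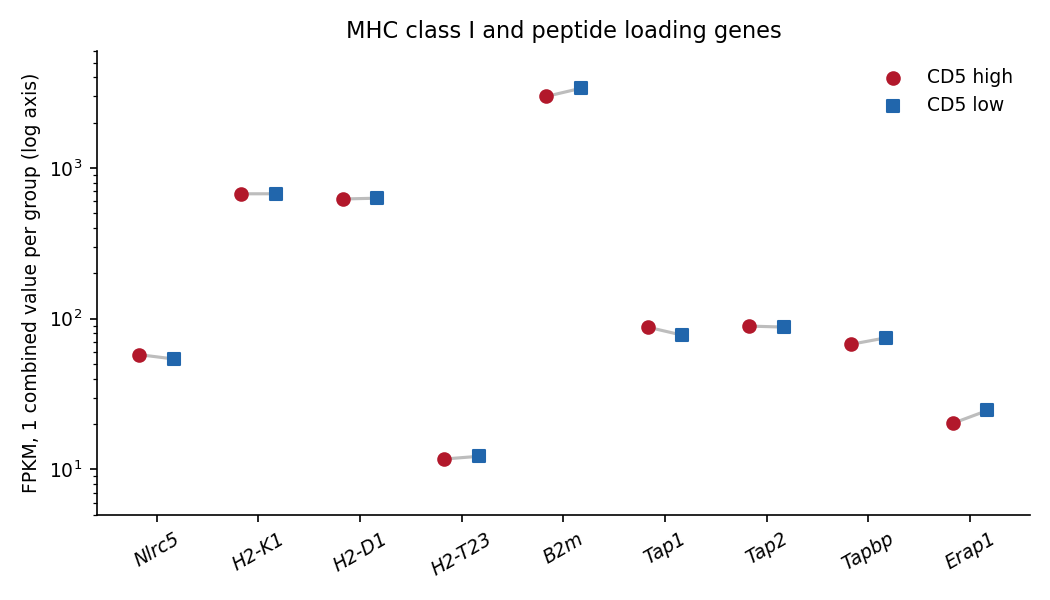
Combined FPKM value of each member (log axis) in CD5 high (circles) and CD5 low (squares), joined by a line per gene; there is 1 value per group and no error bar can be drawn. B2m stands highest, at 2984 FPKM in CD5 high and 3378 FPKM in CD5 low, and H2-T23 lowest, at 11.7 FPKM in CD5 high and 12.2 FPKM in CD5 low.

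**Figure D2:**
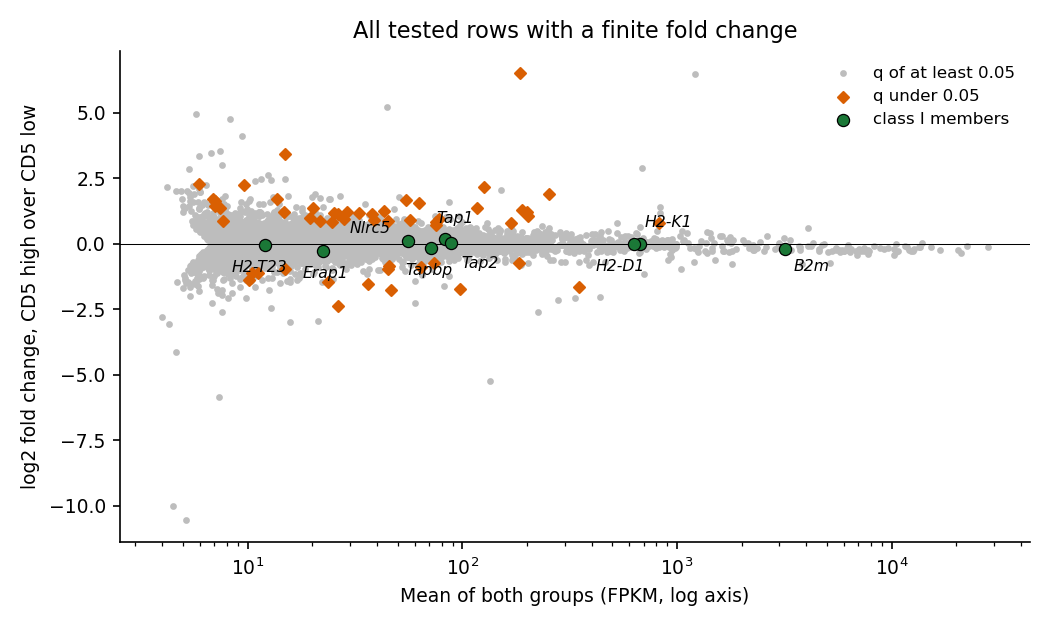
Log2 fold change (CD5 high over CD5 low) against the mean of both groups in FPKM (log axis) for the 7237 tested rows with a finite fold change. The 9 members lie between -0.28 and 0.18, and none is among the rows with q under 0.05.

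The order of levels was the same in both groups. B2m was highest, followed by H2-K1 and H2-D1, then Tap2, Tap1 and Tapbp, then Nlrc5, Erap1 and H2-T23. By mean FPKM, a scale corrected for length, B2m lay above 99.1% of tested rows, H2-K1 above 97.6% and H2-D1 above 97.5%, while H2-T23 lay above 27.3%. Whether neighbours such as H2-K1 and H2-D1 differ beyond their spread could not be assessed, since there is no spread.

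Nlrc5, whose product is the main transactivator of class I genes, had 57.7 FPKM in CD5 high and 54.1 FPKM in CD5 low. The log2 fold change was 0.09 (q = 0.903 in the authors' deposited table). Its locus is chromosome 8, 94472763 to 94527272 (mm10), and it shared no 50-base window with transcripts of another gene in GENCODE M21.

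H2-K1, which encodes the K heavy chain, had 674.5 FPKM in CD5 high and 674.7 FPKM in CD5 low. This difference of -0.00056 on the log2 scale (q = 0.998 in the authors' deposited table) had only 0.111% of all rows closer to 0. H2-D1, which encodes the D heavy chain, had 623 FPKM in CD5 high and 631 FPKM in CD5 low, a log2 fold change of -0.02 (q = 0.983 in the authors' deposited table). The ratio of H2-K1 to H2-D1 was 1.08 in CD5 high and 1.07 in CD5 low. H2-T23, the gene of the nonclassical molecule Qa-1 that presents leader peptides of other class I chains, had 11.7 FPKM in CD5 high and 12.2 FPKM in CD5 low. Its log2 fold change was -0.06 (q = 0.985 in the authors' deposited table).

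The heavy chain values carry limits of their own. NOD mice carry the d allele of H2-K1 and the b allele of H2-D1, while the mm10 reference comes from C57BL/6, which carries b alleles of both. Class I genes are also near copies of one another. Of the 50-base windows of the longest coding transcript, 28.8% of those of H2-T23, 14.3% of those of H2-D1 and 8.79% of those of H2-K1 also occurred in a transcript of another gene in GENCODE M21, against 0% for B2m, Erap1 and Nlrc5. The authors' locus for H2-T23 (chromosome 17, 35994504 to 36038174) spans 43.7 kb and was also given for H2-T24, while GENCODE M21 places the gene within 3.08 kb of it. How reads that fit several genes were assigned is not stated in the labels, so levels of single heavy chain genes are uncertain. The effect of the allele difference was not tested.

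Over the 14 tested rows of the listed class I heavy chain genes, the sum was 1777 FPKM in CD5 high and in CD5 low. The log2 ratio between the unrounded sums was -6.5e-06. H2-K1 and H2-D1 made up 73.0% of that sum in CD5 high and 73.5% in CD5 low. With the row for H2-Q7 and H2-Q9 added, the share was 84.9% in CD5 high and 85.3% in CD5 low. The sum is less open to the sharing of reads between near copies than each gene is. Rows of this family outside the list, such as H2-Q5 (31.7 FPKM in CD5 high and 25.7 FPKM in CD5 low), were not added. Nor were the listed rows with too few data for the authors' test. These were H2-Q9 and the joint row of H2-Q6 and H2-Q8, each with a higher value in CD5 high. The closeness of the sums therefore holds for the rows added only, and the sums have no error.

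B2m, the light chain that all of these heavy chains need, had 2984 FPKM in CD5 high and 3378 FPKM in CD5 low. The log2 fold change was -0.18 (q = 0.772 in the authors' deposited table). B2m thus stood at 4.42 times H2-K1 in CD5 high and 5.01 times in CD5 low. The authors' locus for B2m (chromosome 2, 122120108 to 122186189) spans 66.1 kb, the extent of the gene Patl2 on the opposite strand in GENCODE M21, which contains B2m. The library kit does not mark strand, so reads from the pair cannot be told apart by strand. Under quantile normalization the log2 fold change of B2m was -0.07.

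Tap1 and Tap2 encode the paired subunits of the peptide transporter. Tap1 had 87.9 FPKM in CD5 high and 77.8 FPKM in CD5 low, a log2 fold change of 0.18 (q = 0.812 in the authors' deposited table), which was the highest among the members. Tap2 had 89.4 FPKM in CD5 high and 88.0 FPKM in CD5 low, a log2 fold change of 0.02 (q = 0.982 in the authors' deposited table) that became -0.01 under quantile normalization. Tap1 stood at 0.984 of Tap2 in CD5 high and at 0.884 of it in CD5 low.

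Tapbp, whose product tapasin bridges the transporter and the class I molecule, had 67.7 FPKM in CD5 high and 74.7 FPKM in CD5 low. Its log2 fold change was -0.14 (q = 0.864 in the authors' deposited table). Erap1, the aminopeptidase that trims peptides to the length that fits the groove, had 20.2 FPKM in CD5 high and 24.6 FPKM in CD5 low. Its log2 fold change of -0.28 (q = 0.740, p = 0.247 in the authors' deposited table) was the member value farthest from 0. Of all rows, 56.6% lay closer to 0 than Erap1.

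The wider class I pathway, in 5 lists of 70 symbols, had 55 tested rows. Of these 0 changed, where the background over all tested rows was 0.758%, so few or none would be called at that share. The median log2 fold change of the 55 rows was -0.04, with 23 values higher and 32 lower in CD5 high. At an unadjusted p under 0.05 there were 4 (7.27%, against 10.3% of all rows): Pdia3, Ezh2, Ifngr1 and Tyk2.

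Other heavy chain and class I-like genes had 12 tested rows, 6 with a higher and 6 with a lower value. The most abundant was the joint row of H2-Q7 and H2-Q9, genes of the nonclassical Qa-2 molecule, with 212 FPKM in CD5 high and 209.9 FPKM in CD5 low. H2-Q4 had 86.3 FPKM in CD5 high and 83.8 FPKM in CD5 low, and H2-K2 had 63.0 FPKM in CD5 high and 53.0 FPKM in CD5 low. The values of smallest p included 2 rows of low level: H2-Q10 with 5.04 FPKM in CD5 high and 8.61 FPKM in CD5 low, and the joint row of H2-T22 and H2-T9 with 6.07 FPKM in CD5 high and 10.6 FPKM in CD5 low. Cd1d1, which presents lipids to NKT cells, had 18.3 FPKM in CD5 high and 22.9 FPKM in CD5 low. The q-values of these 6 rows ranged upwards from 0.694 (H2-Q10) in the authors' deposited table. Of the other symbols listed, 9 had no row and 2 rows had too few data for the authors' test.

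The list of chaperones, traffic factors and proteases had 13 tested rows, with 4 values higher and 9 lower. Whether each of them, Sppl2a included, acts in class I loading was not tested. Pdia3, the thiol oxidoreductase ERp57 that sits beside tapasin in the loading complex, had 38.8 FPKM in CD5 high and 53.5 FPKM in CD5 low (p = 0.0365, q = 0.440 in the authors' deposited table). The lectin chaperone gene Calr had 124 FPKM in CD5 high and 132 FPKM in CD5 low, and Hspa5, which encodes the chaperone BiP, had 215 FPKM in CD5 high and 213 FPKM in CD5 low. The remaining named rows were the intramembrane protease gene Sppl2a (12.9 FPKM in CD5 high and 16.01 FPKM in CD5 low), the glucosidase subunit gene Ganab (27.6 FPKM in CD5 high and 23.4 FPKM in CD5 low) and the cytosolic aminopeptidase gene Npepps (16.04 FPKM in CD5 high and 18.9 FPKM in CD5 low).

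Interferon-induced proteasome parts make the peptides that TAP carries, and all 6 listed genes were tested. Psmb8, a catalytic subunit of the immunoproteasome, had 718 FPKM in CD5 high and 699.5 FPKM in CD5 low. The activator gene Psme2 had 629 FPKM in CD5 high and 648 FPKM in CD5 low, and the subunit gene Psmb10 had 244 FPKM in CD5 high and 230 FPKM in CD5 low. The assembly factor gene Pomp had the smallest p of the list, with 331 FPKM in CD5 high and 275 FPKM in CD5 low (p = 0.186, q = 0.686 in the authors' deposited table). The log2 fold changes of the 6 genes ran between -0.04 and 0.27.

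Transcription factors of class I genes had 17 tested rows, with 6 values higher and 11 lower. Irf1, which carries the interferon signal to these promoters, had 151 FPKM in CD5 high and 181 FPKM in CD5 low (q = 0.679 in the authors' deposited table). Irf2 had 82.8 FPKM in CD5 high and 103 FPKM in CD5 low, and Atf1 had 17.9 FPKM in CD5 high and 24.6 FPKM in CD5 low. Ezh2, a histone methyltransferase known to repress class I genes in some tumours, had 36.9 FPKM in CD5 high and 25.7 FPKM in CD5 low (p = 0.0362, q = 0.440 in the authors' deposited table).

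Of the 7 interferon receptor and Jak kinase genes, 3 values were higher and 4 lower. Ifngr1, the ligand-binding chain of the interferon gamma receptor, had 71.1 FPKM in CD5 high and 99.2 FPKM in CD5 low (p = 0.0210, q = 0.370 in the authors' deposited table). Tyk2, a kinase of the type I interferon receptor, had 16.7 FPKM in CD5 high and 11.4 FPKM in CD5 low (p = 0.0345, q = 0.435 in the authors' deposited table). Jak1 had 131 FPKM in CD5 high and 153 FPKM in CD5 low, and Jak2 had 46.6 FPKM in CD5 high and 37.7 FPKM in CD5 low.

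**Figure D3:**
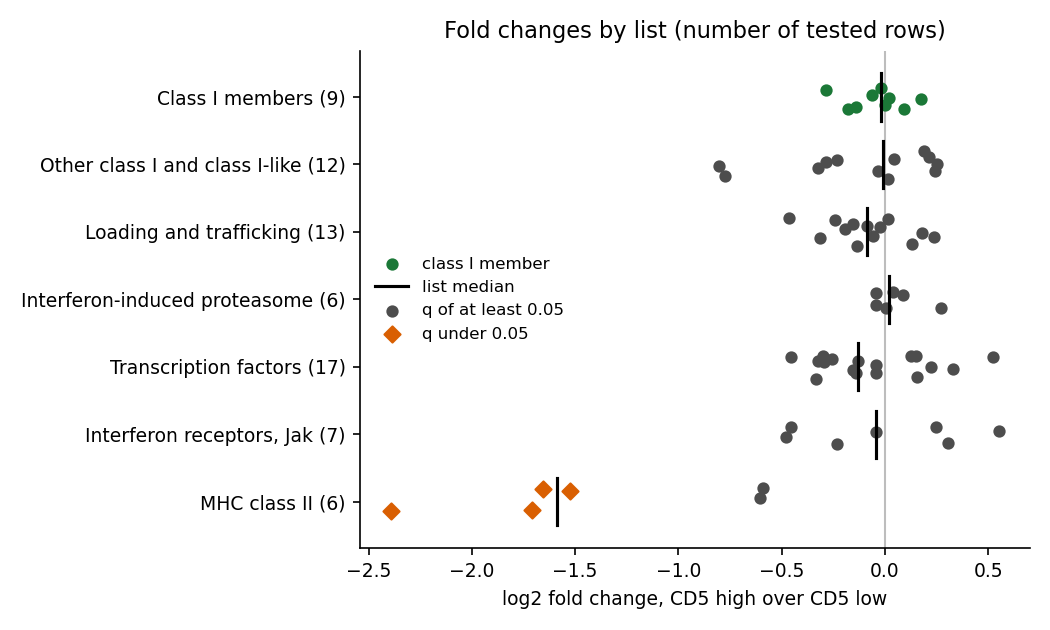
Log2 fold change (CD5 high over CD5 low) of each tested row, by list, with the list median as a vertical bar and rows with q under 0.05 as diamonds; the vertical scatter within a list carries no value. The member median is -0.02 and the MHC class II median -1.59, with 4 of 6 class II rows at q under 0.05.

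MHC class II genes, which present peptides to CD4 T cells and are known from professional antigen-presenting cells, are given for comparison. Of 11 listed symbols, 5 had no row: H2-Ea-ps, H2-DMb1, H2-DMb2, H2-Ob and Ciita. Of 6 tested class II rows 4 fell, where 0.221% of all rows (16 of 7252) fell. Cd74, the invariant chain gene, had 168 FPKM in CD5 high and 530 FPKM in CD5 low, and H2-Aa had 45.6 FPKM in CD5 high and 149 FPKM in CD5 low. H2-Eb1 had 18.8 FPKM in CD5 high and 54.1 FPKM in CD5 low, and H2-Ab1 had 8.44 FPKM in CD5 high and 44.3 FPKM in CD5 low. The 6 rows summed to 260 FPKM in CD5 high and 806 FPKM in CD5 low. The difference between the class I and class II sets was not tested, since the table has 1 value per group.

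The class II genes are also on the marker list of macrophages, monocytes and dendritic cells. Of the 15 markers on that list, 6 had no row: Ciita, Lyz2, Itgax, Csf1r, Adgre1 and Cd68. The other 9 were tested: 8 had values lower in CD5 high, of which 5 fell (0.221% of all rows fell). The 9 rows summed to 637 FPKM in CD5 high and 1256 FPKM in CD5 low. The 4 class II genes that fell were among them and summed to 241 FPKM in CD5 high and 778 FPKM in CD5 low. The other 5 rows summed to 396 FPKM in CD5 high and 478 FPKM in CD5 low, and 1 of these fell, Fcer1g, which was listed at 0 in CD5 high and at 15.8 FPKM in CD5 low. Cst3 had 242 FPKM in CD5 high and 295 FPKM in CD5 low (q = 0.680 in the authors' deposited table), and Ctss had 144 FPKM in CD5 high and 133 FPKM in CD5 low. Such cells also express class I genes, and their part in the class I values was not tested. Pancreatic RNA was present too: 5 of 8 endocrine markers were tested and summed to 2794 FPKM in CD5 high and 321 FPKM in CD5 low. Ins2 alone had 2395 FPKM in CD5 high and 26.7 FPKM in CD5 low (q = 0.193 in the authors' deposited table), and Sst had 6.86 FPKM in CD5 high and 263 FPKM in CD5 low (q = 0.0714 in the authors' deposited table). Of the 5, Ins1 rose, with 368 FPKM in CD5 high and 4.003 FPKM in CD5 low. The 13 tested exocrine markers of 15 listed summed to 1675 FPKM in CD5 high and 1818 FPKM in CD5 low. The values of 11 of the 13 were lower in CD5 high, and 1 fell, Cel, with 12.7 FPKM in CD5 high and 34.6 FPKM in CD5 low. Their part was not tested either. Tested markers of B cells, natural killer cells and endothelium numbered 1 each, namely Cd79b (14.01 FPKM in CD5 high and 11.0 FPKM in CD5 low), Tyrobp, which is also on the macrophage list (3.94 FPKM in CD5 high and 21.8 FPKM in CD5 low) and Pecam1 (16.6 FPKM in CD5 high and 21.3 FPKM in CD5 low). For CD8 T cells 0 of 2 markers had a row.

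Both classes lie in the same stretch of chromosome 17. Between Tapbp and H2-M3 (chromosome 17, 33919478 to 37274485 on mm10, 3.36 Mb) there were 85 tested rows, among them 6 members. In this stretch 3 rows changed (3.53%, beside 0.758% over all rows), and these were H2-Ab1, H2-Aa and H2-Eb1. Without the class II rows, 0 of 80 changed at the authors' q-value, and the log2 fold changes of the 80 had a median of -0.01. Of these 80 rows, 6 had an unadjusted p under 0.05, beside 10.3% of all rows. The genes Psmb9, Tap1, Psmb8 and Tap2 sit side by side within 34.2 kb (34182099 to 34216321). Their log2 fold changes were -0.04 for Psmb9, 0.18 for Tap1, 0.04 for Psmb8 and 0.02 for Tap2. H2-Ab1 begins 46.9 kb beyond Tap2 and was 5.26-fold lower in CD5 high (log2 fold change -2.39, q = 0.0186 in the authors' deposited table). H2-K1 (33996012 to 34000333) and H2-D1 (35263094 to 35267497) also lie in the stretch between Tapbp and H2-M3. Outside it lie Erap1 on chromosome 13 (74639872 to 74691875), B2m on chromosome 2 and Nlrc5 on chromosome 8. In GENCODE M21 all 9 members are protein-coding genes.

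**Figure D4:**
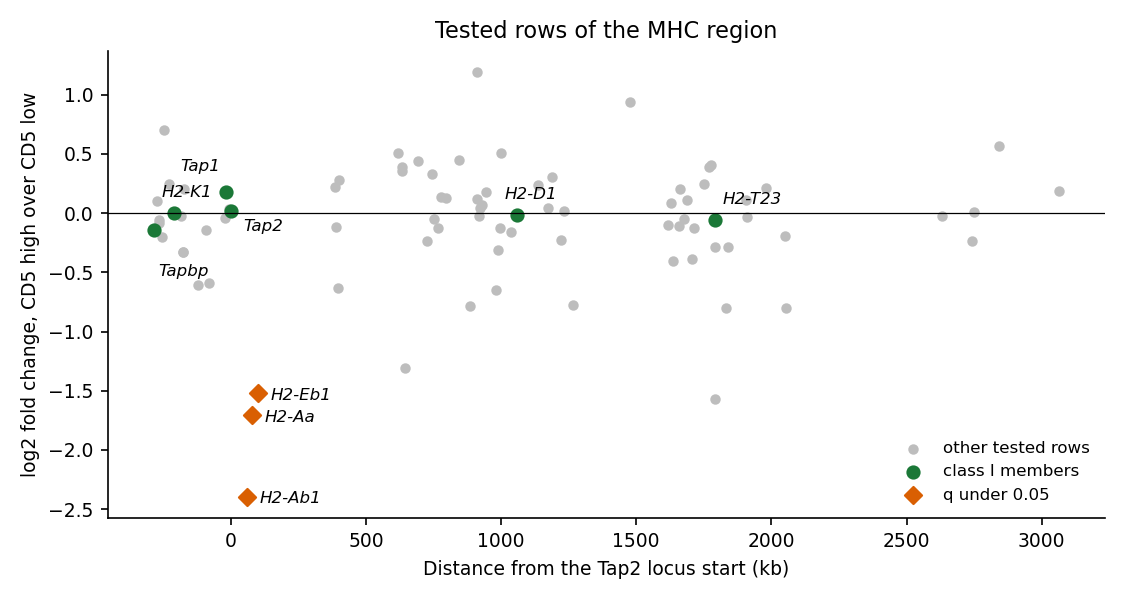
Log2 fold change (CD5 high over CD5 low) of the 85 tested rows of the MHC region, by distance in kb from the start of the Tap2 locus. The 6 members in the region lie near 0, while H2-Ab1, H2-Aa and H2-Eb1 (diamonds, q under 0.05) lie between -2.39 and -1.52 just beyond Tap2.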

How the data were processed

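RNA sequencing libraries of CD5 high and CD5 low effector T cells (2 each) were made, per the labels' protocols, by Triton X-100 lysis, reverse transcription, cDNA amplification and Nextera XT, which does not mark strand. TopHat 1.0.0, Cufflinks and build mm10 are named, per the submitters' processing notes. The annotation and the Cufflinks version are not given in the sources used. Per the file headers, the authors deposited 1 FPKM value per group, with a score (the test statistic), a log2 ratio of the groups, a p-value and a q-value for each gene. That ratio could be recomputed from the deposited FPKM to within 5.1e-05 with no pseudocount. Of 7404 rows, 7252 carried the status OK; these are the tested rows, and each reached at least 6.82 FPKM in a group.

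Members were matched by symbol in Python 3.11.15 (pandas 2.3.3), and counts, medians, sums and motif matches were computed. Because the table holds combined values, no test of the libraries could be run, and the authors' comparison is described. Alternatives were other thresholds, Benjamini-Hochberg adjustment anew (checked on simulated p-values), pseudocounts and scalings. The labels do not say that libraries came from separate animals, so p-values may measure technical spread. Members and lists were chosen with earlier results of these data known. Named were all members and, per list, the rows at q under 0.05 or else the 4 of smallest p and the 2 of highest mean; 1 gene that this rule names is not reported here. Locus starts were raised by 1 base to count from 1. Sequences are from RefSeq (GRCm38.p6), and shared windows from GENCODE M21 transcripts. The longer interferon letters and the spacing range were chosen after the promoters were read. Promoter stretches are printed at 30 bases at most, because annotated 5′ UTRs overlap the windows.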

Additional observations from a re-analysis of the deposited data

How the results depend on the processing

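The count of 0 members past the test held under each alternative run: q under 0.1, an unadjusted p under 0.05, q-values computed anew over all tested rows, over rows with a mean of at least 20 FPKM (8 members) and without marker genes of other cells. These settings all reuse the authors' p-values, of which the smallest among the members was 0.247, so none could have called a member. Over the same settings the number of rows called in the whole table ran from 42 to 746. The member median stayed between -0.06 and -0.01, and the scalings and pseudocounts moved no member by 0.1 or more on the log2 scale except B2m (-0.07 under quantile normalization, -0.18 as deposited). The only sign that turned was that of Tap2, to -0.01 under quantile normalization. In the wider pathway the count went to 4 at an unadjusted p under 0.05, by construction of the looser threshold, and was 0 at q under 0.1. Leaving out libraries was not run, since the table holds combined values. No paired analysis was possible because the table's columns carry no replicate number. The library titles do share the numbers 3 and 4 between CD5 high and CD5 low, and whether the authors' p-values took this into account is not stated. Depth is unknown, and the smallest change that passed the test in the table was 1.66-fold, an observed value and not a limit of detection for the members.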

Other observations

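Outside antigen presentation, chosen after their values were seen, the MHC region held Nelfe, a subunit of the negative elongation factor, with 9.94 FPKM in CD5 high and 24.6 FPKM in CD5 low (log2 fold change -1.31, q = 0.169 in the authors' deposited table). Vps52, a subunit of a vesicle tethering complex, had 35.5 FPKM in CD5 high and 21.8 FPKM in CD5 low (log2 fold change 0.70, q = 0.215 in the same table). Neither passed the test.

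A row for H2-Q9 alone that had too few data for the authors' test was listed at 92.1 FPKM in CD5 high and 68.0 FPKM in CD5 low. The joint row of H2-Q7 and H2-Q9, at the same locus, was tested and gave 212 FPKM in CD5 high and 209.9 FPKM in CD5 low.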
